A study of Homo sapiens with 12 samples.

Results

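The genes examined here are 53 genes of mitosis, the stage of the cell cycle in which duplicated chromosomes are shared between the daughter cells. They are every row of the deposited expression table whose symbol is one of 53 named mitotic kinases, cyclins, kinesins, kinetochore, spindle, checkpoint and condensin genes. All 53 were found among the 27514 genes listed, and all 53 passed the filter of a mean of at least 1 CPM (counts scaled to library depth) over the 12 samples. RNA sequencing was done on IMR32, a human neuroblastoma cell line, 72 h after electroporation with small interfering RNA (siRNA). There were 4 groups of 3 samples: a control siRNA (siCtrl in the design text, SiCTR in the titles), an siRNA against MYCN (siMYCN, titled SiMYCN_2), an siRNA against HAND2 (siHAND2, titled SiHAND2_3), and both (titled SiM2+SiH2_3, termed the combined knockdown). All groups were the same cell line grown in the same medium and carried through the same electroporation, each target was reduced with the siRNA or siRNAs behind 1 title name, and the labels give no second siRNA per target. The labels do not say that the replicates came from separate cultures, so p-values measure the spread between these samples only.

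In dividing cells, cyclin-dependent kinase 1 bound to cyclin A or B starts mitosis, condensins compact the chromosomes, and kinetochores built on the centromeres attach them to the spindle. The spindle checkpoint holds back the anaphase-promoting complex until every chromosome is attached, after which separase cuts cohesin and the chromatids part. Most of these genes are transcribed in G2 and early mitosis by MuvB complexes with MYBL2 and FOXM1, which act through a promoter element called the CHR (cell cycle genes homology region), often next to CCAAT boxes bound by NF-Y. MYCN is the oncogene whose amplification marks high-risk neuroblastoma, and HAND2 is a transcription factor of the sympathetic nervous lineage from which the tumour arises. The design addresses which genes depend on each factor.

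For 6 of the 8 role classes used below, the promoter of the gene that fell most in the combined knockdown is shown because the CHR and CCAAT letters were common to many members. Each run holds the 150 bases before the RefSeq start of the gene, read 5′ to 3′ in the direction of transcription, and capitals mark TTTGAA (the CHR), TTCGAA (a CHR variant) or CCAAT, on either strand. In GRCh38.p14 these stretches are chr4:121823884-121824033 (minus strand) for CCNA2, cyclin A2, and chr15:40160919-40161068 (plus strand) for BUB1B, the checkpoint kinase BUBR1. They are chr11:65084041-65084190 (minus) for CDCA5, the cohesin protector sororin, and chr19:11155783-11155932 (minus) for SPC24, a subunit of the NDC80 kinetochore complex. The last are chr14:55191586-55191735 (minus) for DLGAP5, a spindle assembly factor, and chr4:17810829-17810978 (plus) for NCAPG, a condensin I subunit.
CCNA2: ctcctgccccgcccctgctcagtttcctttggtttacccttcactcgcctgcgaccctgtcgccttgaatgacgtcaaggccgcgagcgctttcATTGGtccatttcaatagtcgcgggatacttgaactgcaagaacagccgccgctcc
BUB1B: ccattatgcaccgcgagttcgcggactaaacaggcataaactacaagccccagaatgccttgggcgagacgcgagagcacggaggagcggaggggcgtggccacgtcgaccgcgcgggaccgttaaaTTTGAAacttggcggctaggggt
CDCA5: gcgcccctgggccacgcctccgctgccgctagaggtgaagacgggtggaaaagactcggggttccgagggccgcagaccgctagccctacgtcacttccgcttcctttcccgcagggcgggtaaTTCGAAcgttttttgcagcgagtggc
SPC24: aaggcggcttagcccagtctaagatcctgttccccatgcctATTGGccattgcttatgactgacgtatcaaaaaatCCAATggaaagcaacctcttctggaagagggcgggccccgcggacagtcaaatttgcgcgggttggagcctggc
DLGAP5: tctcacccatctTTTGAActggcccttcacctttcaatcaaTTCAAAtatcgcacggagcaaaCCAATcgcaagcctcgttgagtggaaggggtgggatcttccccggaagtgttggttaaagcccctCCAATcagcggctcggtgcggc
NCAPG: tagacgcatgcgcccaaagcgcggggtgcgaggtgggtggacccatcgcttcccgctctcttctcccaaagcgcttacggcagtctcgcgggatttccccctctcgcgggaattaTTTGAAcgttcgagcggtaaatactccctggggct

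Over the 300 bases from 250 before to 50 after the start, RefSeq entries were found for 45 members with 51 promoters. The promoter set used here held no entry for FOXM1, AURKA, TPX2, BIRC5, BUB3, TTK, UBE2C and RACGAP1. The CHR letters TTTGAA, searched on both strands, were present in 35 of the 51 member promoters (68.6%), against 10.3% of the 14273 promoters of all tested genes and 15.2% of the 35116 promoters in the table. CCAAT stood in 37 of them (72.5%), against 34.9% and 34.6%, and both motifs together in 27 (52.9%), against 4.1% and 5.9%. A CHR and a CCAAT match can share at most 1 letter. The variant TTCGAA was found in 3 member promoters (5.9%, against 1.7% and 1.4%). Of the stretches above, BUB1B and NCAPG hold the CHR letters from 23 and 35 bases before the start, CDCA5 holds the variant from 26 bases before it, and DLGAP5 holds CHR letters on both strands, from 138 and 109 bases before it. Letters that E-box factors such as MYCN can bind, CACGTG, were found in 6 (11.8%, against 9.5% and 7.3%), namely in the promoters of ANLN, CCNB1, CENPE, CENPF, MYBL2 and PLK1. CATCTG, an E-box form bound by HAND factors with E proteins, was found in 4 (7.8%, against 10.1% and 14.7%). A match describes the letters of the window and is not a binding site.

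The 48 CHR matches had a median position 28 bases before the start, and the 80 CCAAT matches a median position 83 bases before it. Where promoters of the same gene overlap, as for PTTG1, the same letters are counted more than once. In the plot of match positions the CHR letters lie mostly in the last 100 bases before the start or just after it.

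**Figure D1:**
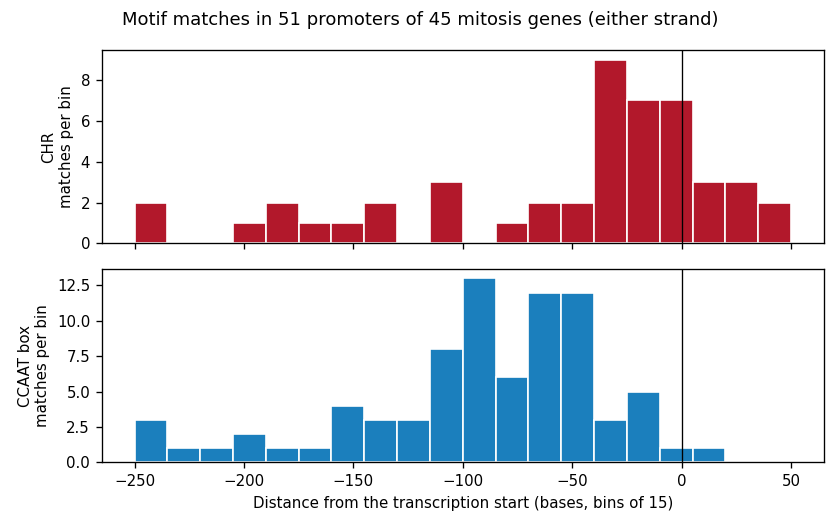
Number of CHR (TTTGAA, top) and CCAAT (bottom) matches on either strand in bins of 15 bases, by distance from the transcription start in 51 promoters of 45 mitosis genes. The CHR matches gather near the start (median −28) and the CCAAT matches farther upstream (median −83).

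The libraries differed in a way that touches each value. Depth estimated from the steps between low values was 31.5 to 64.1 M reads, at which 3 reads equal 0.0468 to 0.0951 CPM, so counting error was small for the members, whose lowest group mean was 4.53 CPM (SPC25 in the combined knockdown). MYCN stood at 67.5% of its siCtrl mean in siMYCN, 84.1% in siHAND2 and 47.7% with both siRNAs (61% after rescaling), and HAND2 at 136%, 26% and 30.7%. Reads in listed genes made up a mean of 65.1, 62.4, 59.4 and 51.4% of all reads in the siCtrl, siMYCN, siHAND2 and combined groups, and in the last the 3 replicates held 58.4%, 51.4% and 44.3%. Over all 12680 tested genes the median log2 change stood at 0.01 in siMYCN, −0.14 in siHAND2 and −0.28 with both siRNAs, and 0.01, 0.01 and 0.04 after division of the samples by median-ratio size factors (rescaled below). Of 10 noradrenergic neuroblastoma markers 9 reached 1 CPM (TH did not), and their summed level was 784 to 839.7 CPM in siCtrl, 1059.7 to 1093 in siMYCN, 719 to 764 in siHAND2 and 572 to 869.5 with both siRNAs. HAND2, itself an siRNA target, is among these markers, so its own change is part of each sum. The sums therefore do not give the direction of the other noradrenergic markers. None of 5 leukocyte markers reached 1 CPM. Of 7 stromal markers COL1A1, PDGFRA and PDGFRB reached that level while COL1A2, COL3A1, LUM and DCN did not, and the list sum was 116 to 125 CPM in siCtrl, 149 to 159 in siMYCN, 54.5 to 66 in siHAND2 and 29.9 to 47.2 with both siRNAs. The part of these marker changes in the values below was not tested.

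The mitosis genes together took a smaller share of the transcriptome in each knockdown. They made up 0.943% ± 0.0275 (SD, n = 3) of the reads in listed genes with siCtrl, 0.853% ± 0.0109 with siMYCN, 0.583% ± 0.00597 with siHAND2 and 0.395% ± 0.0153 with both siRNAs. By sample the shares were 0.961, 0.956 and 0.911% in siCtrl, 0.864, 0.853 and 0.842% in siMYCN, 0.577, 0.589 and 0.583% in siHAND2, and 0.412, 0.392 and 0.382% in the combined knockdown. No sample of 1 group overlapped the samples of another, and the order of the groups was siCtrl, siMYCN, siHAND2, combined. The median change of the members minus that of all genes was −0.171 ± 0.0294, −0.721 ± 0.025 and −1.36 ± 0.0741 log2 units. In a bulk sample, fewer dividing cells and less of these RNAs in each cell cannot be told apart.

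**Figure D2:**
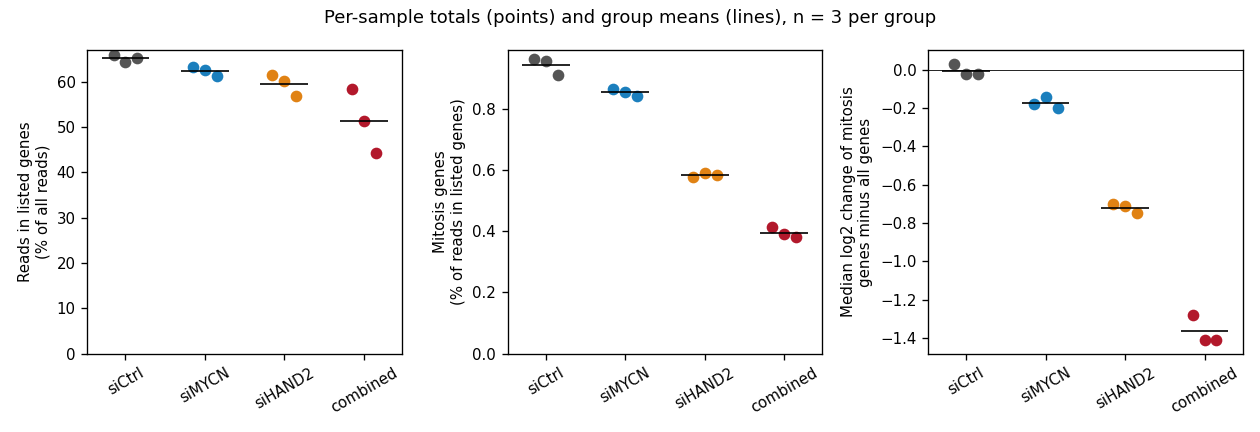
Per-sample share of all reads in listed genes (left), share of those reads in the 53 mitosis genes (middle) and median log2 change of the mitosis genes minus that of all genes (right), with lines for the means of 3 samples. The middle and right panels step down in the order siCtrl, siMYCN, siHAND2, combined without overlap, while the left panel shows the wide spread of the combined samples (58.4, 51.4 and 44.3%).

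The response of these genes to a partial loss of MYCN was read from the siMYCN and siCtrl samples. After rescaling, 68% of the siCtrl mean of MYCN was left in siMYCN. Changes are differences of mean log2(CPM + 1), and a gene that fell or rose (a call) had a limma adjusted p under 0.05 over all genes tested. The change was small: 8 of 53 fell, 0 rose, and the median log2 change was −0.15, from −0.66 to 0.17, against 0.01 for all genes. Of all tested genes, 16.3% fell and 17.4% rose, so in this fit over all 4 groups the share of members that fell was close to the background. The 8 were CCNB1, AURKB, BUB1B, MAD2L1, KIF14, KIF20B, CENPE and CENPF, and their values are given in their classes below. In 32 of 53 members all siMYCN samples lay below all siCtrl samples, against 29.6% of tested genes. After rescaling 21 of 53 members fell, a larger share than the 22.5% of tested genes, and MYBL2 rose (0.18, limma adjusted p 0.035, beside 25.4% of tested genes that rose). A fit of the siCtrl and siMYCN samples alone gave 31 of 53 lower, again a larger share than in tested genes (26.9%). When replicates were blocked by number, 11 fell, against 18.6% of tested genes, PLK1, NCAPD2 and SMC4 being added (limma adjusted p 0.017, 0.019 and 0.041). Without siCtrl replicate 1, siMYCN replicate 2 or siMYCN replicate 3, 5 were called lower in each case, against 12, 11.9 and 12% of tested genes. The calls of AURKB, KIF20B, CENPE, CENPF and MAD2L1 held in all 14 other fits run for them, while that of KIF14 was lost in 8, that of BUB1B in 6 and that of CCNB1 in 4.

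For HAND2, siHAND2 was compared with siCtrl, and 52 of 53 members fell, against 30.4% of tested genes. The median log2 change was −0.84, and the extremes were KIF23, a kinesin of the central spindle (−1.14), and BUB3, a checkpoint protein (−0.28, limma adjusted p 0.07), the 1 member not called. In 53 of 53 members the siHAND2 samples lay below the siCtrl samples, against 45% of tested genes. After rescaling 52 fell, against 24.9%, with a median of −0.68. The count was also 52 when any 1 of the siCtrl or siHAND2 replicates was left out, against 23.3 to 26.9% of tested genes.

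With both siRNAs, 53 of 53 members fell against siCtrl, beside 50.1% of tested genes, with a median of −1.67 and extremes of −2.01 (CDCA5) and −0.47 (BUB3). The combined samples lay below the siCtrl samples in 53 of 53 members, against 48.3% of tested genes. No fit without 1 siCtrl or combined replicate gave another count (45.6 to 57.9% of tested genes), and the median of the members then ranged from −1.77 to −1.54. After rescaling 52 fell, against 33%, with a median of −1.31, and BUB3 was no longer called (−0.11, limma adjusted p 0.13). Against siMYCN, to which it adds the HAND2 siRNA, the combined knockdown had 53 members lower, against 50% of tested genes, with a median of −1.43. The samples did not overlap in 52 of 53 (49.6% of tested genes). Against siHAND2, to which it adds the MYCN siRNA, 52 members were lower, against 31.5% of tested genes, with a median of −0.79. BUB3 was not called (−0.19, limma adjusted p 0.23), and it was the member whose samples overlapped (52 of 53 did not, against 30.8%). After rescaling BUB3 was at 0.01 in both of these comparisons. Comparisons with siCtrl share the siCtrl samples, so their changes are given side by side and not as independent results.

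Between the single knockdowns, 50 members were higher in siMYCN than in siHAND2, against 26.1% of tested genes, with a median difference of 0.68. BUB3 (0.15, limma adjusted p 0.37), CENPE (0.31, adjusted p 0.063, and 0.028 when blocked on replicate) and CENPF (0.17, adjusted p 0.29) were not called. After rescaling 49 were called, against 22.4%. The siHAND2 samples lay below the siMYCN samples in 52 of 53 members, against 44.9% of tested genes, and CENPF was the member that overlapped. The targets were not equally reduced: after rescaling MYCN stood at 68% of its siCtrl mean in siMYCN and HAND2 at 29.1% in siHAND2. The part of this in the differences was not tested, so they do not rank the 2 factors.

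**Figure D3:**
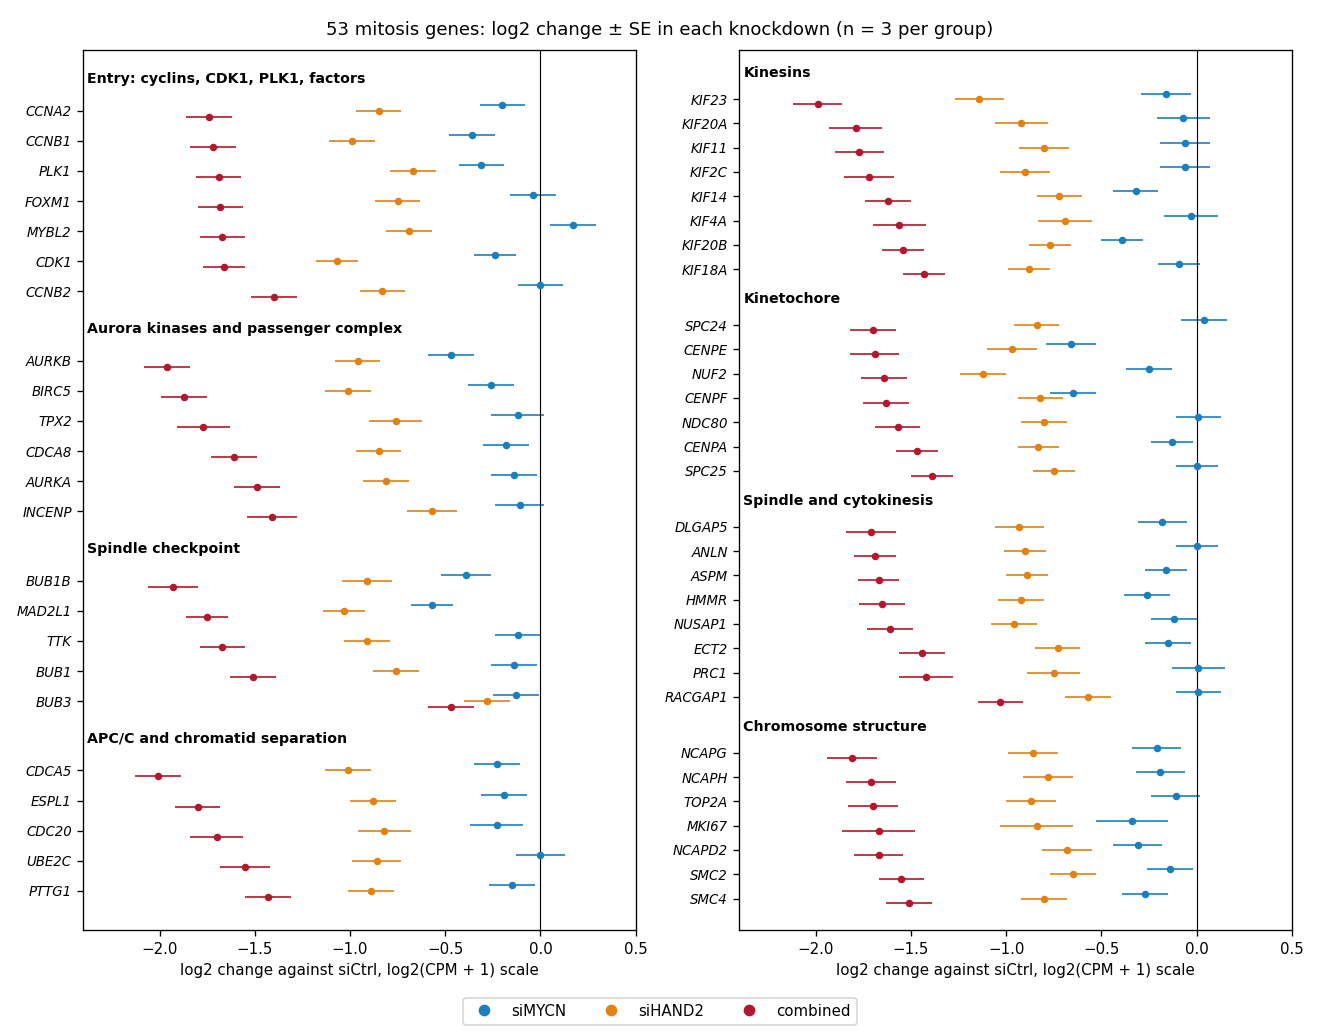
Log2 change ± SE against siCtrl (3 samples per group, log2(CPM + 1) scale) of each of the 53 mitosis genes, by role, in siMYCN (blue), siHAND2 (orange) and the combined knockdown (red). In every role class but the checkpoint genes, where BUB3 stands at −0.47 in the combined knockdown, the combined points lie at −1.03 or below, and the siMYCN points lie between −0.66 and 0.17.

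Of the 7 genes of mitotic entry, 1 fell in siMYCN (CCNB1), 7 in siHAND2 and 7 with both siRNAs, with class medians of −0.20, −0.83 and −1.68. As deposited, 16.3, 30.4 and 50.1% of all tested genes fell in these groups, and after rescaling 22.5% fell in siMYCN. These shares stand behind the counts of every class below. After rescaling CDK1, CCNA2 and PLK1 also fell in siMYCN (limma adjusted p 0.025, 0.007 and 0.0013), and MYBL2 rose. CCNB1, cyclin B1, had 134, 115 and 127 CPM in replicates 1 to 3 of siCtrl, 101, 97.9 and 94.2 in siMYCN, 63.1, 65.7 and 59.4 in siHAND2, and 44.6, 36 and 32.4 in the combined knockdown. The groups were separate at each step. Its log2 changes were −0.36 (SE 0.12, limma adjusted p 0.021), −0.99 (adjusted p 2.8e-07) and −1.72 (adjusted p 3e-12). CCNA2, at hg19 chromosome 4, 122737599 to 122745157 (minus strand), had 120.3, 118 and 123 CPM in siCtrl, 102, 107 and 105 in siMYCN, 69.2, 67.6 and 62 in siHAND2, and 42.7, 35.2 and 29.1 in the combined knockdown. It changed by −0.20 (SE 0.12, limma adjusted p 0.22), −0.85 (adjusted p 3.1e-06) and −1.74 (adjusted p 3.2e-12), and the siMYCN samples lay below siCtrl without being called.

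CCNB2, cyclin B2, had 118, 101 and 112 CPM in siCtrl and 112, 112 and 105 in siMYCN, which overlapped, then 62, 63.8 and 58.7 in siHAND2 and 49.5, 41.7 and 33.6 in the combined knockdown. Its combined change of −1.40 (limma adjusted p 2.5e-10) was the smallest of the class. MYBL2, also called B-MYB, the MuvB partner that activates the class in S and G2 (hg19 chromosome 20, 42295659 to 42345137, plus strand), had 91.1, 101 and 99.3 CPM in siCtrl and 107, 115 and 106 in siMYCN. Its siHAND2 values were 62.6, 59.9 and 57.6 CPM and its combined values 37.6, 28.4 and 24.8. MYBL2 had the most positive siMYCN change of the members, with each siMYCN sample above every siCtrl sample (0.17, SE 0.12, limma adjusted p 0.33), while it fell in siHAND2 (−0.69, adjusted p 8.4e-05) and the combined knockdown (−1.67, adjusted p 1.3e-11). CDK1 stood at 84.4%, 47.2% and 31.2% of its siCtrl mean, and PLK1, polo-like kinase 1, at 80.1%, 62.3% and 30%. FOXM1, the forkhead factor of the late genes, stood at 97%, 59.3% and 30.9%.

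Of the 6 genes of the Aurora kinases and the chromosomal passenger complex, which corrects wrong attachments, AURKB alone fell in siMYCN as deposited. All 6 fell in siHAND2 and in the combined knockdown, and the class medians were −0.16, −0.83 and −1.69. After rescaling BIRC5 and CDCA8 also fell in siMYCN (limma adjusted p 0.0033 and 0.047). AURKB, the kinase of the complex, had 57.4, 53.2 and 52.2 CPM in siCtrl, 41.7, 38.2 and 37.2 in siMYCN, 26, 28.9 and 27.4 in siHAND2, and 15.8, 13.5 and 10.8 in the combined knockdown. The groups did not overlap, and the combined mean was 24.6% of siCtrl. Its changes were −0.47 (SE 0.12, limma adjusted p 0.0037), −0.96 (adjusted p 4.9e-07) and −1.96 (adjusted p 3.8e-13). BIRC5, survivin, a targeting subunit of the complex, had 202, 184 and 209.7 CPM in siCtrl, 167, 167 and 163 in siMYCN, 98.1, 102 and 92.9 in siHAND2, and 63.1, 51 and 47.7 in the combined knockdown. The siMYCN samples were below siCtrl but not called (−0.26, limma adjusted p 0.089), and it changed by −1.01 and −1.87 in the others (adjusted p 1.3e-07 and 5.1e-13).

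INCENP, the scaffold of the complex, had 70.6, 72.5 and 67.2 CPM in siCtrl, 65.1, 67.7 and 61.4 in siMYCN, 49, 46.8 and 45 in siHAND2, and 31.2, 27.8 and 19.6 in the combined knockdown, and its siMYCN and siCtrl samples overlapped. Its changes were −0.11, −0.57 and −1.41 (limma adjusted p 0.53, 0.00091 and 5.1e-10). TPX2, which activates AURKA on the spindle, had 167, 159 and 144 CPM in siCtrl, 153, 145 and 136 in siMYCN, 106, 91.7 and 80.1 in siHAND2, and 54.7, 47.7 and 35.2 in the combined knockdown. Its siMYCN and siCtrl samples overlapped too, and the others stood apart (−0.12, −0.76 and −1.77, adjusted p 0.55, 7.2e-05 and 2.4e-11). AURKA changed by −0.14, −0.81 and −1.49, and CDCA8, borealin, by −0.18, −0.85 and −1.61, the first value of each not called.

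The 5 spindle checkpoint genes held both a strong and the weakest response: 2 fell in siMYCN (BUB1B and MAD2L1), 4 in siHAND2 and 5 with both siRNAs, with medians of −0.14, −0.91 and −1.67. BUB3, which docks BUB1 and BUBR1 at kinetochores (hg19 chromosome 10, 124913760 to 124924887, plus strand), had 212, 195 and 209.6 CPM in siCtrl, 193, 183 and 187 in siMYCN, 173, 168 and 167 in siHAND2, and 186, 138 and 127 in the combined knockdown. Combined replicate 1 lay above all siHAND2 samples and within the siMYCN range, and the other two lay below. Rescaled, BUB3 stood at 91.8%, 91.9% and 92.8% of siCtrl in the 3 knockdowns. BUB1B (hg19 chromosome 15, 40453210 to 40513338, plus strand) had 90.1, 85.6 and 81.7 CPM in siCtrl, 66.4, 66 and 63.2 in siMYCN, 45.9, 47.5 and 42.6 in siHAND2, and 29, 20.8 and 17.1 in the combined knockdown. Its groups were separate, with changes of −0.39 (SE 0.13, limma adjusted p 0.026), −0.91 (adjusted p 5.8e-06) and −1.93 (adjusted p 3.5e-12).

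MAD2L1, the MAD2 protein that inhibits CDC20, had 138, 128 and 139.6 CPM in siCtrl, 93.7, 90.1 and 88.7 in siMYCN, 63.5, 68.5 and 64.7 in siHAND2, and 39.8, 34.5 and 44.7 in the combined knockdown. It was among the 3 members lowest in siMYCN (−0.57, SE 0.11, limma adjusted p 0.00033), and its 4 groups did not overlap. TTK, the MPS1 kinase, changed by −0.12, −0.91 and −1.67, and BUB1 by −0.14, −0.76 and −1.51, with only the siHAND2 and combined changes called.

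As deposited, none of the 5 genes of the anaphase-promoting complex's mitotic partners and of chromatid separation fell in siMYCN. All 5 fell in siHAND2 and in the combined knockdown, and the medians were −0.19, −0.88 and −1.70. After rescaling CDCA5 and ESPL1 fell in siMYCN (limma adjusted p 0.011 and 0.041). CDCA5 (hg19 chromosome 11, 64844927 to 64851616, minus strand) had the most negative combined change of the 53. It had 55.5, 52.1 and 51.6 CPM in siCtrl, 45.2, 46.1 and 44.1 in siMYCN, 28.2, 26.1 and 23.4 in siHAND2, and 15.7, 12 and 10.2 in the combined knockdown. The groups did not overlap, and its changes were −0.23 (limma adjusted p 0.16), −1.01 (adjusted p 4.1e-07) and −2.01 (SE 0.12, adjusted p 4.9e-13). UBE2C, the ubiquitin-conjugating enzyme of the complex, had 80.8, 82.2 and 87.6 CPM in siCtrl and 81.8, 87.4 and 81.6 in siMYCN, then 44.6, 47.9 and 44.2 in siHAND2 and 35, 28 and 22.2 in the combined knockdown. Its siMYCN mean was 100.1% of siCtrl, and the fall in siHAND2 was −0.86 (limma adjusted p 5.5e-06).

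PTTG1, securin, which holds separase inactive, had 58.6, 58.7 and 63 CPM in siCtrl, 53.4, 56.6 and 52.1 in siMYCN, 31.9, 31.8 and 32.4 in siHAND2, and 26.2, 20.9 and 18.6 in the combined knockdown. The siMYCN samples lay below siCtrl without a call (−0.15, limma adjusted p 0.34), and the later falls were −0.89 and −1.43 (adjusted p 1e-06 and 5.9e-11). PTTG1 has near copies, PTTG2 and PTTG3P, so its counts are uncertain. ESPL1, separase, stood at 87.3%, 53.9% and 27.7% of siCtrl, and CDC20, the activator of the complex, at 85.2%, 55.7% and 29.5%.

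Among the 8 mitotic kinesins, KIF14 and KIF20B fell in siMYCN and 8 fell in siHAND2 and in the combined knockdown, with medians of −0.08, −0.84 and −1.67. KIF11, the motor that pushes the spindle poles apart, had 134, 133 and 131 CPM in siCtrl, 123, 136 and 124 in siMYCN, 82, 78.1 and 68.2 in siHAND2, and 48.8, 37.5 and 30.3 in the combined knockdown. Its siMYCN samples spanned the siCtrl samples (−0.06, limma adjusted p 0.78, and 0.01 when scaled to the sum over listed genes), and it changed by −0.80 and −1.77 in the others (adjusted p 2.6e-05 and 1.3e-11). KIF23 (hg19 chromosome 15, 69706585 to 69740767, plus strand), the MKLP1 motor of the central spindle, had 70.5, 73.6 and 69.7 CPM in siCtrl, 62.1, 65.6 and 63.6 in siMYCN, 33.3, 31.2 and 31 in siHAND2, and 22.2, 17.3 and 13.2 in the combined knockdown. Its siHAND2 mean of 44.7% of siCtrl was the lowest of the members, with changes of −0.16 (limma adjusted p 0.37), −1.14 (adjusted p 1.3e-07) and −1.99 (SE 0.13, adjusted p 1.3e-12).

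KIF18A, which damps chromosome movement at the metaphase plate, had 38.9, 35.8 and 37.6 CPM in siCtrl, 34.7, 37.9 and 32.6 in siMYCN, 20, 19.7 and 20 in siHAND2, and 14.7, 13.8 and 11.4 in the combined knockdown. It had the smallest combined change of the kinesins (−1.43, limma adjusted p 2.3e-11), and its siMYCN and siCtrl samples overlapped. KIF20B, a motor of late cytokinesis, fell in siMYCN from 60.2, 57.2 and 56 to 42.4, 44.9 and 44.4 CPM (−0.39, SE 0.11, adjusted p 0.0081), and KIF14, another cytokinesis motor, from 83, 89.9 and 80.4 to 67.1, 70 and 65.6 (−0.32, SE 0.12, adjusted p 0.049). The siMYCN samples of both lay below siCtrl. KIF2C, the depolymerase MCAK, changed by −0.06, −0.90 and −1.72, and KIF20A, a partner of AURKB in cytokinesis, by −0.07, −0.92 and −1.79. KIF4A, a chromosome-bound kinesin, changed by −0.03, −0.69 and −1.56, and its intronless copy KIF4B is also listed, so it is uncertain.

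Of the 7 centromere and kinetochore genes, CENPE and CENPF fell in siMYCN and 7 fell in the other knockdowns, with medians of −0.13, −0.83 and −1.63. After rescaling NUF2 also fell in siMYCN (limma adjusted p 0.041). CENPF, a large protein of the outer kinetochore (hg19 chromosome 1, 214776532 to 214837915, plus strand), had 551, 587 and 478 CPM in siCtrl, 379, 315 and 337 in siMYCN, 279, 315 and 318 in siHAND2, and 198, 175 and 151 in the combined knockdown. The single knockdowns overlapped each other and lay below siCtrl and above the combined samples. Its changes were −0.65 (SE 0.12, limma adjusted p 0.00026), −0.82 (adjusted p 8.5e-06) and −1.63 (adjusted p 2.2e-11). CENPE, the kinesin that moves chromosomes to the spindle equator, had 67.1, 63 and 56 CPM in siCtrl, 44.5, 34.6 and 38.1 in siMYCN, 27.6, 31.9 and 34.1 in siHAND2, and 22.7, 16.6 and 16.8 in the combined knockdown. It was the member lowest in siMYCN (−0.66, SE 0.13, limma adjusted p 0.00032), and all 4 groups were separate.

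Of the 4 subunits of the NDC80 complex, which binds microtubules, SPC24, SPC25 and NDC80 had siMYCN means from 100% to 103% of siCtrl. SPC24 (hg19 chromosome 19, 11256170 to 11266489, minus strand) had 66.7, 68.2 and 67.1 CPM in siCtrl, 67.7, 70.5 and 69.7 in siMYCN, 37.1, 40.5 and 34.2 in siHAND2, and 23.7, 19.9 and 17 in the combined knockdown. Its siMYCN and siCtrl samples overlapped (0.04, limma adjusted p 0.82), and it changed by −0.84 and −1.70 (adjusted p 2.4e-06 and 2.8e-12). SPC25 had 13.4, 13.3 and 13.9 CPM in siCtrl, 14.5, 13.2 and 12.9 in siMYCN, 8.96, 6.83 and 7.19 in siHAND2, and 4.72, 4.48 and 4.39 in the combined knockdown, the lowest levels among the members. Its combined change of −1.39 (limma adjusted p 3.6e-11) was the smallest of the class. NDC80 stood at 101%, 56.4% and 32.4% of siCtrl and NUF2 at 83.5%, 45.2% and 31.3%, while CENPA, the histone H3 variant of centromeres, stood at 91.3%, 54.9% and 34.1%.

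None of the 8 spindle and cytokinesis genes fell in siMYCN and all 8 fell in siHAND2 and in the combined knockdown, with medians of −0.14, −0.89 and −1.63. DLGAP5 (hg19 chromosome 14, 55614834 to 55658397, minus strand) had 79.4, 70.5 and 73.4 CPM in siCtrl, 65.7, 66.7 and 63.8 in siMYCN, 37.2, 40.8 and 37.9 in siHAND2, and 28.5, 21.8 and 17.2 in the combined knockdown. The groups were separate, and the changes were −0.18 (limma adjusted p 0.3), −0.93 (adjusted p 2.9e-06) and −1.71 (adjusted p 2.1e-11). ASPM, a spindle pole protein, had 221, 238 and 206 CPM in siCtrl, 187, 204 and 202 in siMYCN, 121, 125 and 111 in siHAND2, and 73.6, 74 and 60.4 in the combined knockdown. It changed by −0.16, −0.89 and −1.67 (limma adjusted p 0.3, 8.2e-07 and 3.1e-12), with no overlap between groups.

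RACGAP1, which forms the centralspindlin complex with KIF23, had 125, 119 and 125 CPM in siCtrl, 127, 126 and 118 in siMYCN, 81.2, 84.9 and 81.3 in siHAND2, and 73.4, 58.8 and 49 in the combined knockdown. After BUB3 it had the smallest combined change of the members (−1.03, SE 0.12, limma adjusted p 5.3e-08), with 49.1% of siCtrl left, and its siMYCN and siCtrl samples overlapped. ANLN, the actin-binding protein anillin, stood at 100%, 53.2% and 30.5% of siCtrl, and PRC1, which bundles the central spindle, at 101%, 59.2% and 37.9%. NUSAP1 and HMMR, microtubule-binding proteins, and ECT2, the activator of RhoA at the cleavage furrow, changed by −1.61, −1.65 and −1.44 in the combined knockdown.

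Of the 7 genes of chromosome structure, as deposited 0 fell in siMYCN and 7 fell in siHAND2 and in the combined knockdown, with medians of −0.21, −0.80 and −1.67. After rescaling NCAPD2, SMC4, NCAPG and NCAPH fell in siMYCN (limma adjusted p 0.00069, 0.0022, 0.0091 and 0.026). TOP2A, the topoisomerase that untangles sister chromatids (hg19 chromosome 17, 38544773 to 38574203, minus strand), had 556, 523 and 529.9 CPM in siCtrl, 503, 503 and 480.4 in siMYCN, 304, 301 and 276 in siHAND2, and 209.8, 164 and 128 in the combined knockdown. The groups were separate, although the siMYCN change of −0.11 was not called (limma adjusted p 0.55), and the others were −0.87 and −1.70 (adjusted p 1e-05 and 3.2e-11). NCAPG (hg19 chromosome 4, 17812436 to 17846488, plus strand) had 125, 128 and 126 CPM in siCtrl, 112, 113 and 104 in siMYCN, 71.7, 70.3 and 66.1 in siHAND2, and 44.2, 34.9 and 28.4 in the combined knockdown. It was the lowest of the class in the combined knockdown (−1.81, limma adjusted p 3.3e-12), and its groups did not overlap.

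SMC4, a condensin ATPase, had 244, 221 and 209 CPM in siCtrl, 196, 179.7 and 182 in siMYCN, 135, 125 and 126 in siHAND2, and 90.8, 76.9 and 67.8 in the combined knockdown, again without overlap (−0.27, −0.80 and −1.51, limma adjusted p 0.082, 5.8e-06 and 2.8e-11). MKI67, the Ki-67 proliferation antigen, was the member most variable between replicates, with 239, 225 and 141 CPM in siCtrl, 209, 128 and 140.5 in siMYCN, 125, 108 and 96.6 in siHAND2, and 49.7, 80.4 and 57.2 in the combined knockdown. Its siCtrl and siMYCN samples overlapped (−0.34, SE 0.19, adjusted p 0.17), and it fell in siHAND2 (−0.84, adjusted p 0.00076) and the combined knockdown (−1.67, adjusted p 2.1e-08). NCAPH and NCAPD2, the other condensin I subunits, and SMC2, the partner of SMC4, stood at 30.3%, 31.5% and 33.9% of siCtrl in the combined knockdown.

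**Figure D4:**
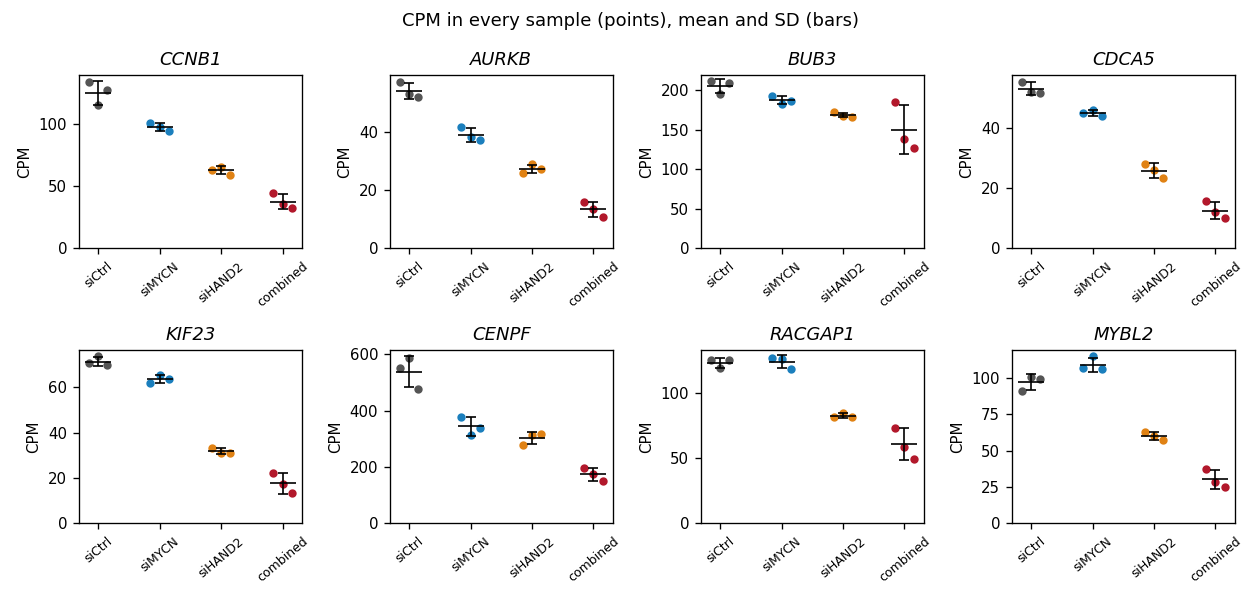
CPM of 8 mitosis genes in each of the 12 samples (points), with the mean and SD of 3 samples per group (bars), each panel on its own axis from 0. CDCA5, KIF23, AURKB and CCNB1 step down through the groups, BUB3 changes least (combined mean 73.1% of siCtrl), CENPF is alike in both single knockdowns (344 and 304 CPM), and MYBL2 is highest in siMYCN (109 CPM).

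Whether the 2 siRNAs together lowered the genes by more than the sum of their single log2 changes was tested as an interaction. It was called negative for 28 of 53 members and positive for 0, against 3.65% and 0.355% of tested genes, with a member median of −0.63 against −0.18 for all genes. The median of the summed single changes was −1 and that of the combined change −1.67, and in 53 of 53 members the combined change lay below the sum, as it did in 77.6% of tested genes. After rescaling it lay below the sum in 49 of 53 members and in 51.7% of tested genes. By class, 4 of the 7 entry genes, 3 of the 6 Aurora and passenger genes, 2 of the 5 checkpoint genes and 3 of the 5 separation genes were called. So were 5 of the 8 kinesins, 3 of the 7 kinetochore genes, 3 of the 8 spindle genes and 5 of the 7 chromosome genes. Those with the most negative coefficient were MYBL2 (−1.15, SE 0.18, limma adjusted p 3e-04), KIF11 (−0.92, adjusted p 0.0059), SPC24 (−0.90, adjusted p 0.0021) and TPX2 (−0.89, adjusted p 0.0085). Each had a siMYCN change between −0.12 and 0.17 and was lower in the combined knockdown than in siHAND2. Nearest 0 were BUB3 (−0.06, adjusted p 0.86), CENPE (−0.06, adjusted p 0.86), MAD2L1 (−0.15, adjusted p 0.57) and CENPF (−0.16, adjusted p 0.6), of which CENPE, CENPF and MAD2L1 were the members lowest in siMYCN. All 4 turned positive after rescaling (0.13, 0.12, 0.03 and 0.03). The siMYCN change is subtracted in the coefficient, so a low siMYCN value raises it by construction and a high one lowers it. The level left of each target was not the same in the single and combined knockdowns. On the rescaled values, siMYCN left 68% of the control MYCN level and both siRNAs 61% (limma adjusted p 0.054 between them). For HAND2 the level went the other way, with 29.1% left by siHAND2 and 39.2% by both (adjusted p 0.0016). The part of these differences in the interaction was not tested.

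The number of interaction calls depended on single libraries, on the scale and on the replicate number. Rescaled, 40 members were called against 4.47% of tested genes, with a median of −0.45, all 28 among them. When blocked on replicate, the fit called 42, against 9.12% of tested genes. It was 16, 18 and 17 without siCtrl replicate 1, 2 or 3 (2.26, 2.42 and 2.04% of tested genes), 13 and 12 without siMYCN replicate 1 or 2 (2.11 and 1.85%), and 14 and 13 without siHAND2 replicate 1 or 2 (2.06 and 1.91%). Without combined replicate 1 the members called were 48, but 33.6% of all tested genes were called negative in that fit. Without a filter on low values 5 members were called, against 0.573% of tested genes.

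**Figure D5:**
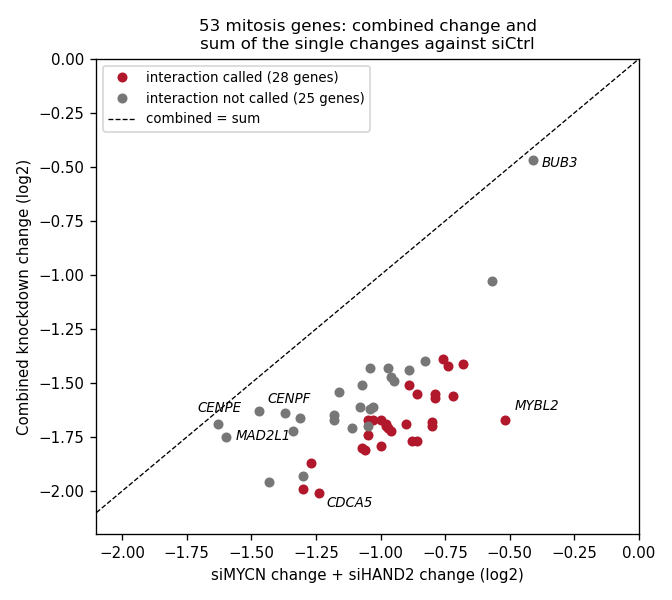
Combined log2 change against siCtrl (vertical) by the sum of the siMYCN and siHAND2 changes (horizontal) for the 53 mitosis genes, with the same siCtrl samples behind both axes and a dashed line where both are equal. All points lie below the line; MYBL2 lies farthest from it (interaction −1.15) and BUB3 and CENPE nearest (−0.06).

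Other genes of cell division were set beside the members. Of 115 other mitosis genes tested, 25 fell and 1 rose in siMYCN, 104 fell in siHAND2 and 110 fell in the combined knockdown, with medians of −0.13, −0.68 and −1.32, beside 16.3, 30.4 and 50.1% of all tested genes that fell. After rescaling 104 were lower and 3 higher in the combined knockdown, beside 33% of tested genes lower. The interaction was called negative for 29 of them, against 3.65% of tested genes. The shares of tested genes that fell also stand behind the counts of the smaller lists that follow. Within that list, 33 of 35 other kinetochore genes fell in the combined knockdown, the lowest being TRIP13, the ATPase that disassembles the checkpoint complex (−2.03, limma adjusted p 9.3e-14), and CENPT, an inner kinetochore protein, was at −0.04 (adjusted p 0.77). Of 31 other spindle genes 30 fell, from FAM83D, a spindle anchor of casein kinase (−1.85, adjusted p 4.2e-12), to NUMA1, a spindle pole protein, which was not called there (−0.16, adjusted p 0.26) and rose in siMYCN (0.40, adjusted p 0.014). All 12 other kinases, phosphatases and partners fell, from PKMYT1, an inhibitory kinase of CDK1 (−1.96), to CKS2, a CDK1 subunit (−1.19), and all 6 centriole genes, from PLK4, the centriole duplication kinase (−1.69), to CEP192 (−0.66).

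The same 115 genes include complexes that act with the members, with smaller median changes. Of 17 subunits and regulators of the anaphase-promoting complex, 4 fell in siMYCN, 14 in siHAND2 and 16 with both siRNAs (median −0.72, and 12 after rescaling with a median of −0.40). FBXO5, the inhibitor EMI1, was lowest (−1.61, limma adjusted p 2.7e-12), and ANAPC13, a small subunit, was not called (−0.24, adjusted p 0.068). Of 11 cohesin genes 10 fell in the combined knockdown (median −0.76), from ESCO2, the S-phase acetyltransferase (−1.75, adjusted p 5.3e-12), to the loader NIPBL, which was not called (−0.11, adjusted p 0.47). All 3 condensin II subunits fell (NCAPD3 −1.96, NCAPH2 −0.97). After rescaling CENPT, NUMA1, NIPBL and ANAPC13 stood above siCtrl, at 0.28, 0.20, 0.25 and 0.11. Outside that list, of 10 MuvB and DREAM genes, 7 fell and 1 rose: RBL1, the p107 repressor, changed by −1.16 (adjusted p 5.9e-10) and LIN37, a MuvB core subunit, by 0.30 (adjusted p 0.027).

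Of the 49 DNA replication genes, active earlier in the cycle, 26 fell in siMYCN, 48 in siHAND2 and 48 with both siRNAs, against 16.3, 30.4 and 50.1% of tested genes, with medians of −0.32, −0.85 and −1.64, beside −0.15, −0.84 and −1.67 for the members. The difference between the lists was not tested. ORC1, the cell cycle regulated subunit of the origin recognition complex, fell from 68.6 ± 1.39 CPM (SD, n = 3) in siCtrl to 47.6 ± 2.76, 30.4 ± 1.76 and 12.6 ± 2.6 in siMYCN, siHAND2 and the combined knockdown (limma adjusted p 0.0018, 4e-08 and 1.8e-14). ORC4, another subunit, stood at 46.5 ± 2.3, 46 ± 1.81, 44.6 ± 2.22 and 46 ± 3.1 CPM and was not called in any of the 3 as deposited (adjusted p 0.93, 0.68 and 0.89), while after rescaling it was called higher in the combined knockdown (0.34).

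Within the members, the changes were set beside features the choice of genes did not use. The 33 members with the CHR letters TTTGAA had median changes of −0.18, −0.83 and −1.64 in siMYCN, siHAND2 and the combined knockdown, and the 12 without them −0.17, −0.90 and −1.72. BUB1 and CDCA5, which hold the variant TTCGAA, are among those 12, so the split does not part genes with any CHR form from genes with none. With and without CCAAT the combined medians were −1.66 (34 genes) and −1.69 (11 genes). The 6 members with CACGTG had a siMYCN median of −0.34 and the 39 without it −0.16. Of the 6, 3 (CCNB1, CENPE and CENPF) were among the 8 called lower there, beside 16.3% of tested genes. PLK1 (−0.31), ANLN (0) and MYBL2 (0.17, the most positive of all members) were not called. For CATCTG the gap in siMYCN was wider. The 3 members with it (AURKB, CENPE and PTTG1) had a siMYCN median of −0.47 and the 42 without it −0.17. AURKB and CENPE were called there and PTTG1 (−0.15) was not. These splits hold few genes and were not tested.

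Some members may share reads with other transcripts, and no source used here says whether counting used the strand. CCNA2 overlaps EXOSC9, FOXM1 overlaps RHNO1, KIF20A overlaps CDC23, ANLN overlaps KIAA0895, NCAPG overlaps LCORL and SMC4 overlaps IFT80, each on the other strand, and NCAPD2 holds SCARNA10 on its own strand. For 14 members the annotation names pseudogenes, BUB3, AURKB, DLGAP5 and NCAPG among them. The values of all these genes carry that uncertainty.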

How the data were processed

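RNA sequencing values of 12 IMR32 samples (4 groups of 3, grouped by title) were analysed for 53 mitosis genes, whose list, like the other gene lists and the tests, was chosen with earlier results of these data known. The authors deposited CPM, with a constant of 1e-04 added. Per the submitters' processing notes the tools were STAR 2.5.1 and Partek with hg19 (GRCh37), and the counting tool, strand use and annotation are not given in the sources used here. Depth was estimated from the worth of 1 read (31.5 to 64.1 M reads, 18.2 to 37.5 M in listed genes). Of values under 20 reads 90.9 to 92.3% were whole within 0.1, under 95%, so no count test was run. Replicates differed by a mean chi-square of 3.36 to 37.8 per gene, above counting noise, and each counted as 1 sample.

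Values were tested as log2(CPM + 1) for 12680 genes with mean CPM of at least 1, with limma 3.58.1 in R 4.3.3 (lmFit, eBayes with trend, all 4 groups, 8 residual degrees of freedom), for 7 contrasts, two-sided. An adjusted p (Benjamini-Hochberg, over all genes tested) under 0.05 is termed a call, and such genes fell or rose. Log2 changes on this scale understate low genes. Adding 1 to low CPM values affects SPC25 most. Alternatives were no filter or a filter at a mean of 5 CPM, a pseudocount of 0.1, division by the median ratio (genes of mean CPM at least 5) or by the sum over listed genes, the replicate number as a block, only the groups compared, and each replicate left out. Deviations of same-numbered samples from their group means correlated at 0.15 to 0.44 between siCtrl and siMYCN and at 0.14 to 0.33 between siMYCN and siHAND2, over 0.1 in every pair, so the numbers were taken to pair these groups, and values with the block are given beside their results. In the other 4 group pairs the correlations ran from −0.19 to 0.42, not all over 0.1. The labels also number the samples replicate by replicate, without naming a batch.

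Genes given sample by sample were, by class, those with the highest siCtrl mean and the largest and smallest combined change, plus those not called, those called in siMYCN and the 4 largest interactions; MKI67 was chosen after its values were seen. From other lists the extremes were named. Promoters and transcription starts are from RefSeq (GRCh38.p14), gene positions from the table (hg19), where 53 of 53 matched GENCODE. Motifs were counted with Python 3.11.15. The windows of AURKB and KIF23 are not printed. Results for genes of other processes are not reported here.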

Additional observations from a re-analysis of the deposited data

Results flagged for a closer look

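The effect of the HAND2 siRNA differed with and without the MYCN siRNA for 28 of the 53 mitosis genes, by limma's interaction coefficient at an adjusted p under 0.05. All 28 coefficients were negative, beside 3.65% of tested genes called negative. Of 19 other fits, the calls of ANLN, FOXM1, MYBL2, NDC80 and SPC24 held in all 19. Those of BIRC5, BUB1, KIF23, PRC1 and TOP2A were each lost in 10, and the rest lay between. In log2 units the coefficients of the entry genes were MYBL2 −1.15, FOXM1 −0.88, PLK1 −0.71 and CCNA2 −0.69. Those of the Aurora and passenger genes were TPX2 −0.89, INCENP −0.73 and BIRC5 −0.59, and those of the checkpoint kinases TTK −0.64 and BUB1 −0.61. The separation genes had CDCA5 −0.77, ESPL1 −0.74 and UBE2C −0.69. Among the kinesins the values were KIF11 −0.92, KIF4A −0.84, KIF20A −0.8, KIF2C −0.76 and KIF23 −0.69. The kinetochore genes had SPC24 −0.9, NDC80 −0.77 and SPC25 −0.64, and the spindle genes ANLN −0.79, PRC1 −0.68 and ASPM −0.61. The chromosome structure genes had SMC2 −0.76, NCAPG −0.75, NCAPH −0.74, TOP2A −0.72 and NCAPD2 −0.67. In each of these genes the combined knockdown lay below the sum of the single changes. Less MYCN and more HAND2 remained in the combined knockdown than in siMYCN and siHAND2, respectively. The rescaled levels were 61% against 68% of control for MYCN, and 39.2% against 29.1% for HAND2. The part of this in the coefficients was not tested. The group with the widest spread in the share of reads in listed genes, the combined knockdown (58.4, 51.4 and 44.3%), enters every coefficient, and its part in them was not tested. After rescaling the 28 were called as well, and the median interaction over the 53 members moved from −0.63 to −0.45.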

How the results depend on the processing

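As deposited, with either filter, with a pseudocount of 0.1 and in the fit with a replicate block, the medians of the mitosis genes moved by less than the spread between replicates. Rescaling by the median ratio, the sum over listed genes, and the median ratio with the block gave medians of −0.68, −0.71 and −0.68 in siHAND2, −1.31, −1.32 and −1.31 in the combined knockdown, −1.11, −1.17 and −1.11 in combined against siMYCN, and 0.53, 0.61 and 0.53 in siMYCN against siHAND2. The siMYCN median was −0.09 with the listed sum. Members called lower in siMYCN were 21, 14 and 24 under these 3 settings and 31 with only the groups compared, beside 22.5, 18.4, 24 and 26.9% of tested genes, and 1 was called higher in each of the 4. With the replicate block alone, 11 members were lower in siMYCN, 53 in siHAND2 and 42 in the interaction, beside 18.6, 34.2 and 9.12% of tested genes. BUB3 in siHAND2 (limma adjusted p 0.036) and CENPE between the single knockdowns (0.028) were added by the block, and no member lost a call under it in the 7 contrasts.

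Without a filter 5 interactions were called, beside 0.573% of tested genes. Leaving out 1 replicate gave 12 to 48 interactions (1.85 to 33.6% of tested genes) and 5 to 7 members lower in siMYCN (11.9 to 13%). In the combined knockdown 52 to 53 were lower against siMYCN (42.2 to 62% of tested genes) and against siHAND2 (24.3 to 47.4%). Between the single knockdowns 47 to 50 were higher in siMYCN (19.1 to 22.6%). The medians ranged from −0.18 to −0.15 in siMYCN, −0.88 to −0.81 in siHAND2, −1.77 to −1.54 in the combined knockdown, −1.55 to −1.35 against siMYCN, −0.90 to −0.68 against siHAND2, 0.64 to 0.73 between the single knockdowns and −0.77 to −0.50 in the interaction.

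Signs turned for small changes. In siMYCN they turned for CCNB2 (0.01, 0.06 and 0.01 under the 3 scalings, −0.06 to 0.04 with a replicate left out), SPC25 (0.01, 0.06 and 0.01, and −0.05 to 0.03), KIF11, FOXM1 and KIF4A (0.01, 0.02 and 0.03 with the listed sum, KIF4A also 0.01 to 0.03 without siCtrl replicate 1 or 2 or siMYCN replicate 3), ANLN (0.01, 0.06 and 0.01, and 0.01 to 0.03 in 4 fits without a replicate), RACGAP1 (−0.02 to 0.04 with a replicate left out) and UBE2C (−0.03 to 0.04), while KIF2C came to 0 with the listed sum and NDC80 to 0 and −0.01 without siCtrl replicate 2 or siMYCN replicate 1. BUB3 turned to 0.01 under the median ratio in combined against siMYCN, to 0.01, 0.03 and 0.01 against siHAND2, and came to 0 between the single knockdowns. In the interaction they were BUB3 (0.13, 0.10 and 0.13, and −0.22 to 0.05 with a replicate left out), CENPE (0.12, 0.08 and 0.12, and −0.20 to 0.03), CENPF (0.03 and 0.03) and MAD2L1 (0.03 and 0.03). The cause was not tested. With 3 samples per group the standard errors of the members' interactions were 0.15 to 0.26 log2 units, which limits what could be detected.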

Other observations

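Across the 53 members, the interaction coefficient had r = −0.48 and rho = −0.45 with the GC content of the annotated transcript (34.3 to 60%), and MYBL2, with the most negative coefficient, had the highest GC content (60%). The points share the same 12 libraries, and genes are not independent replicates. The siMYCN change had r = −0.34 and rho = −0.26 with transcript length. The 8 members called lower in siMYCN ranged from 34.3 to 55.7% GC with a median of 39.6%, against 42.1% over the 53.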
